A study of Mus musculus with 24 samples.

Results

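CD38, NAD metabolism and sirtuin genes were examined in LSK-SLAM cells of young and old mice. The list holds 10 genes, *Cd38*, *Bst1*, *Nampt*, *Nmnat1*, *Nmnat3*, *Sirt1*, *Sirt2*, *Sirt3*, *Sirt6* and *Sirt7*, out of 18762 genes in the table. It was chosen by pathway, with the old-against-young values of these same mice already known, so that differences between the ages are described here for the 10 genes and not tested. All 10 genes had a row, and all 10 passed the minimum mean of 10 normalized read counts that left 12354 genes for the fits across genes.

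LSK-SLAM cells are a bone marrow fraction enriched for hematopoietic stem cells (HSCs), negative for lineage markers and CD48 and positive for Sca-1, c-Kit and CD150. They were sorted from 5 young mice (labelled 4 to 5 months) and 7 old mice (labelled 20 to 22 months; the text of the study gives higher ages for both groups), all C57BL/6 with the genotype WT and, as far as the labels say, without treatment. RNA of 15000 cells per sample was depleted of ribosomal RNA, and 300 pg went into the library. Normalized read counts are reads per gene divided by an effective library size, per M reads (M stands for 1000000), and the reads behind them could be recovered in full (0.861 to 5.12 M per mouse, so that 3 reads stood for 0.583 to 3.69 normalized read counts).

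Each mouse carries a letter in its label whose meaning is not stated. Letter A was carried by young mice 1 and 2 and old mice 1, 5, 6 and 7, and letter B by young mice 3, 4 and 5 and old mice 2, 3 and 4. Levels differed between the letters for 36.1% of all genes tested (limma with age as a covariate), and values are therefore also given within each letter. Recovered reads were 0.861 to 3.11 M in mice of letter A and 3.23 to 5.12 M in mice of letter B, without overlap. Letter and depth therefore cannot be told apart. All 10 HSC identity markers were present in every mouse, with summed levels of 2957 to 4880 normalized read counts in young and 1597 to 5382 in old mice. The lowest of these sums were those of old mice 5 and 7, which also had the fewest recovered reads (1.13 and 0.861 M). Old mice 5, 6 and 7 also had the highest summed levels of 8 myeloid markers (969, 2227 and 647, against 180 to 438 in the other old and 237 to 571 in the young mice), and differences between the ages of the 10 genes are given with and without these mice. Old mice 5 to 7 all carry letter A, so that leaving them out also changes the balance of the letters among the old mice. Since the RNA is from bulk samples, fewer cells of a type and less RNA per cell cannot be told apart.

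NAD is a coenzyme of redox reactions and is also used up as a substrate. CD38 and its relative BST1 (also named CD157) are surface enzymes that cleave NAD into nicotinamide and ADP-ribose or cyclic ADP-ribose, a calcium-mobilizing messenger. NAMPT turns the released nicotinamide into nicotinamide mononucleotide, from which the NMNAT enzymes rebuild NAD, and sirtuins are deacylases that consume NAD each time they remove an acyl group from a protein. CD38 is a lymphoid and myeloid surface marker, and CD38 and the sirtuins have been studied in ageing tissues and in HSCs.

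The promoters of *Cd38*, the gene with the largest difference between the ages, and of *Nampt*, the gene with the highest level per length, are shown because they differ in composition (RefSeq, GRCm38.p6, 250 bases before to 50 after the annotated start, 5′ to 3′). The *Cd38* window lies on the plus strand at chr5:43868559-43868858 and holds 1 CpG, and the *Nampt* window lies on the plus strand at chr12:32820085-32820384 and holds 36. In GENCODE the genes begin further upstream, at 43868553 for *Cd38* and at 32819545 for *Nampt*, so that both windows lie inside these gene spans. Capitals mark AGATAA in the first and GGGCGG in the second sequence, on either strand.
Cd38: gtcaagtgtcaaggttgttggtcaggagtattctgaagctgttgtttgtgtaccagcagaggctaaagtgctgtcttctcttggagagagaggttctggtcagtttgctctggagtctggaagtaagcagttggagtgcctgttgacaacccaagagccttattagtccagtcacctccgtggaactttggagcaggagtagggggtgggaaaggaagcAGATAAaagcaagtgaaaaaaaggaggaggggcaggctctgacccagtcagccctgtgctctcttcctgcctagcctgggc
Nampt: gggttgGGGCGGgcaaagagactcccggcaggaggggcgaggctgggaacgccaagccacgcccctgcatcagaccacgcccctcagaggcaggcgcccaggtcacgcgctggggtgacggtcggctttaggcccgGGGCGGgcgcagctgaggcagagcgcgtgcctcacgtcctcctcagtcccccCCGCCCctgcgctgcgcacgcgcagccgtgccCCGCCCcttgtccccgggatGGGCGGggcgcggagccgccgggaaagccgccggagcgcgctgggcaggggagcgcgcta

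Windows were available for 9 of the 10 genes, with *Bst1* not among them, and 5 motifs, none of which contains another, were searched on both strands. Of all 32851 promoter windows, 13.6% held the TATA box letters TATAAA and 11.2% held the GATA site letters AGATAA. The GC box letters GGGCGG were in 35.7%, the E-box letters CACGTG in 7.15% and the CCAAT box in 37.4% of windows. *Cd38* held a single AGATAA, which began 31 bases before the RefSeq start, and none of the other motifs. By the gene span of GENCODE this site lies inside the gene. AGATAA was found in none of the other genes with a window. The CpG count of 1 for *Cd38* compares with 13 to 47 in the windows of the other genes and with a median of 7 over all windows. Of all windows, 14.1% held no more CpGs than *Cd38*. *Sirt1* held the most, with 47 CpGs, 7 GC boxes and 2 E-boxes. No window of the list held the TATA box letters. A match describes these letters only, since no binding was measured.

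*Cd38* (ENSMUSG00000029084, mm10 chr5:43868553-43912375, plus strand) was the gene of the list whose ages differed most. In young mice 1 to 5 it had 37.3, 40.4, 33.9, 34.9 and 37.9 normalized read counts. In old mice 1 to 7 it had 145.5, 61.7, 120.5, 85.9, 48.9, 69.4 and 98.4. All 7 old mice lay above the highest young mouse, and the young mice lay close together while the old mice were spread widely, from old mouse 5 at the lower to old mouse 1 at the upper end.

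Young mice averaged 36.9 ± 2.55 normalized read counts of *Cd38* (SD, n = 5) and old mice 90.1 ± 34.2 (SD, n = 7), a ratio of 2.44. The log2 difference on the scale of log2(normalized read count + 1) was 1.18 (SE 0.24), which ranked 50 among the increases of all genes tested. Separation was as large within each letter, with a ratio of 2.33 (log2 difference 1.09) in letter A and 2.51 (log2 difference 1.25) in letter B. Without old mice 5 to 7 the log2 difference was 1.39.

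The spread of *Cd38* between young mice (coefficient of variation 6.90%) was no larger than the 9.04% that counting error alone gives at these depths, while in old mice it was 37.9% against 7.62% from counting. The values of the nearest mice rest on few reads. Old mouse 5 had 62 reads of *Cd38*, with a 95% exact Poisson interval of 37.5 to 62.7 normalized read counts that takes in the 40.4 of young mouse 2, which rests on 84 reads. The lower bound of old mouse 1 was 130.1. Intervals cover counting error only.

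**Figure D1:**
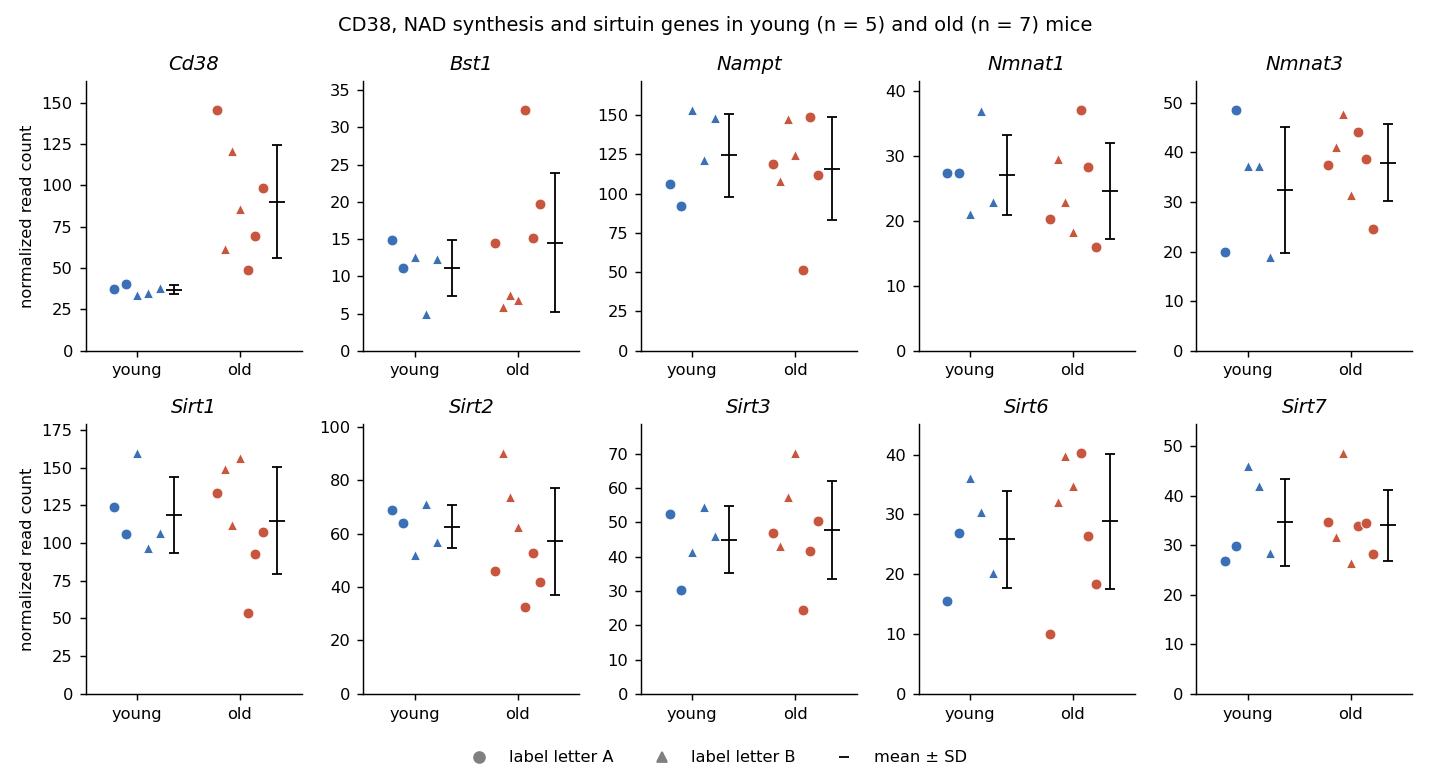
Normalized read counts of the 10 genes in each of 5 young (blue) and 7 old (red) mice, with circles for label letter A and triangles for letter B, and the mean ± SD in black beside each group (linear axes from 0, scaled per gene). *Cd38* is the gene whose groups do not overlap, with old mice between 48.9 and 145.5 and young mice between 33.9 and 40.4.

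Among all genes tested, 0.291% had old values that were all above the young values, and *Cd38* was the 1 gene of the list with this order. In the limma fit without covariates 0 of the 10 genes had an adjusted p under 0.05 (0.105% of all genes), and with the letter as a covariate 1 gene, *Cd38*, did (0.299% of all genes). Because the list was made with this contrast known, nothing is read from these counts.

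*Bst1* (chr5:43818885-43843986), the neighbour and paralog of *Cd38*, had the lowest level of the list, with 14.9, 11.1, 12.6, 4.91 and 12.3 normalized read counts in young mice 1 to 5. In old mice its lowest value was 5.82, its median 14.5 and its highest 32.4, in old mouse 5. The ages overlapped, with means of 11.2 ± 3.76 (SD, n = 5) and 14.5 ± 9.40 (SD, n = 7) and a log2 difference of 0.22 (SE 0.48). Within letter A old mice were at a ratio of 1.57 to young mice, and within letter B at 0.676. Without old mice 5 to 7 the log2 difference was -0.34.

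Other genes around *Cd38* were looked up after its values had been seen. Of the genes within 500000 bases on either side that were tested, *Cc2d2a*, *Fbxl5*, *Prom1* and *Tapt1* had log2 differences of -0.05 (SE 0.20), 0.11 (SE 0.17), -0.05 (SE 0.49) and -0.17 (SE 0.23) between old and young mice. Each of these differences was smaller than that of *Cd38*. Non-coding genes overlap *Cd38* on the same strand (*Gm16014*) and on the other strand (*Gm16015*), and *Bst1* overlaps the end of *Fbxl5* on the other strand. Whether reads were counted by strand is not given in the sources used here, so that reads from such regions cannot be assigned to one of the genes with certainty.

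*Nampt*, the rate-limiting enzyme of NAD salvage from nicotinamide, had 106, 92.3, 153, 122 and 148 normalized read counts in young mice 1 to 5. Old mice ranged from 51.3 in old mouse 5 over a median of 119 to 149. The other 6 old mice, between 108 and 149, lay inside the young range, and the means were 124 ± 26.4 (SD, n = 5) and 116 ± 32.7 (SD, n = 7), a log2 difference of -0.14 (SE 0.24). Without old mice 5 to 7 this was 0.02.

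*Nmnat1* and *Nmnat3* encode enzymes that make NAD from nicotinamide mononucleotide, the former in the nucleus. *Nmnat1* had 27.4, 27.4, 21.0, 36.9 and 22.9 normalized read counts in young mice 1 to 5 and 16.0 to 37.1 (median 22.8) in old mice, a log2 difference of -0.16 (SE 0.27), or -0.24 without old mice 5 to 7. *Nmnat3* had 19.9, 48.6, 37.3, 37.3 and 18.8 in young mice and 24.6 to 47.7 (median 38.7) in old mice. Its log2 difference of 0.29 (SE 0.27), or 0.35 without old mice 5 to 7, was the next largest of the list after *Cd38*, with old mice falling inside the range of the young mice.

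SIRT1, SIRT6 and SIRT7 act mainly in the nucleus. *Sirt1* had 124, 106, 160, 96.3 and 106 normalized read counts in young mice 1 to 5 and 53.7 to 156 (median 112) in old mice, with the lowest value again in old mouse 5. *Sirt6* had 15.6, 26.9, 36.1, 30.4 and 20.3 in young mice and 9.94 to 40.3 (median 32.1) in old mice. For *Sirt7* these were 26.8, 29.8, 46.1, 42.0 and 28.5, and 26.4 to 48.6 (median 33.9). The groups overlapped for each of the nuclear sirtuins, with log2 differences between old and young mice of -0.09 (SE 0.24) for *Sirt1*, 0.09 (SE 0.34) for *Sirt6* and -0.01 (SE 0.23) for *Sirt7*. Without old mice 5 to 7 these were 0.23, 0.06 and 0.03, so that the signs for *Sirt1* and *Sirt7* turned.

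SIRT2 is mainly cytoplasmic and SIRT3 mitochondrial. *Sirt2* had 68.7, 63.9, 52.0, 71.0 and 56.7 normalized read counts in young mice 1 to 5 and 32.4 to 90.1 (median 52.9) in old mice, and over all mice its log2 difference was -0.19 (SE 0.23). The sirtuin whose ages differed most between the letters was *Sirt2*. In letter A the old mice, at 46.1, 32.4, 52.9 and 41.8, lay below both young mice, and in letter B the old mice, at 90.1, 73.8 and 62.6, overlapped the 3 young mice from above. Its log2 difference was -0.63 in letter A and 0.33 in letter B. Old mice 5 to 7 are 3 of the 4 old mice of letter A, and without them the difference over both letters turned to 0.09 and letter A holds 1 old mouse, at 46.1. *Sirt3* had 52.6, 30.3, 41.4, 54.4 and 46.1 in young mice and 24.5 to 70.2 (median 47.0) in old mice, a log2 difference of 0.05 (SE 0.24), or 0.27 without old mice 5 to 7. Of the 50-base words of *Sirt3*, 10.6% are shared with *Ric8a* and *Psmd13*, which overlap it on the other strand. Reads from these parts cannot be assigned to *Sirt3* with certainty, and how far this affects its level was not examined.

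The difference between the letters in the age effect was tested as an interaction, which the choice of the genes did not use. It was 0.95 (SE 0.40) on the log2 scale for *Sirt2* (letter B minus letter A, limma adjusted p = 0.9998) and 0.17 (SE 0.47) for *Cd38* (limma adjusted p = 0.9998). For *Bst1* it was -0.97 (SE 0.81). In this test 0 of the 10 genes passed an adjusted p of 0.05, against 0.0162% of all genes, and edgeR's quasi-likelihood test called 0 of the 10 as well.

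**Figure D2:**
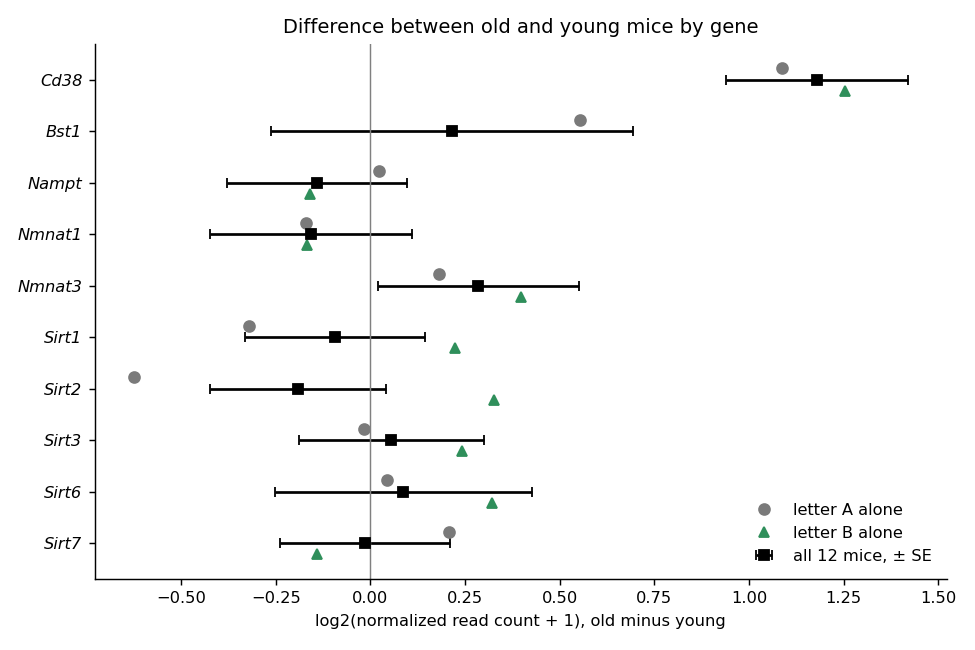
Difference between old and young mice on the log2(normalized read count + 1) scale for each gene, as black squares with SE for all 12 mice, grey circles for letter A alone and green triangles for letter B alone. *Cd38* lies near 1.18 in all 3 estimates, while *Sirt2* is at -0.63 in letter A and 0.33 in letter B, and *Bst1* has no letter B point because its mean there is below 10.

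The letter is a part of each mouse's label, and the list was not chosen on it. It was tested in the same limma fit with age as a covariate. *Bst1* was the 1 gene of the 10 that passed, with 17.9 ± 7.58 normalized read counts (SD, n = 6) in letter A and 8.32 ± 3.32 (SD, n = 6) in letter B, a log2 difference of -1.01 (SE 0.40, limma adjusted p = 0.0482). Of all genes, 36.1% passed this test and 25.6% did so with a lower level in letter B, so 1 of 10 is no more than the background. The call was lost in the edgeR quasi-likelihood test, without young mouse 1 or 4 and without any 1 of old mice 2 to 7.

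Letter differences followed the level of a gene, and letter B held the deeper libraries. Among the 3481 genes with a mean from 10 to below 20 normalized read counts the median log2 difference between letters B and A was -1.21, and 91.7% were lower in letter B, which places the -1.01 of *Bst1* among genes of its level. Among the 1475 genes from 100 to below 200 the median was 0.37. *Nampt*, at 0.39 (SE 0.21), and *Sirt1*, at 0.36 (SE 0.21), lie in this range and close to its median. *Sirt6* had the largest value above 0, at 0.60 (SE 0.30, limma adjusted p = 0.109), against a median of -0.24 for the 4074 genes from 20 to below 50. *Cd38* differed by -0.03 (SE 0.23, limma adjusted p = 0.940) between the letters, against a median of 0.17 for the 2546 genes from 50 to below 100.

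Letter differences depend on how libraries are scaled. Rescaling by median ratios moved the median letter difference of all genes from -0.09 to 0.23. The differences of *Cd38* (0.27 after rescaling) and *Nmnat1* (from -0.06 to 0.23) changed sign, and *Bst1*, at -0.73, was no longer called. After rescaling 5 genes of the list (*Nampt*, *Sirt1*, *Sirt2*, *Sirt3* and *Sirt6*), whose differences were above 0 under both scalings, were called higher in letter B, against 27.8% of all genes tested. That share is over genes of all levels. Because letter differences followed level before rescaling, it is not a matched background, and nothing is read from the count of 5.

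**Figure D3:**
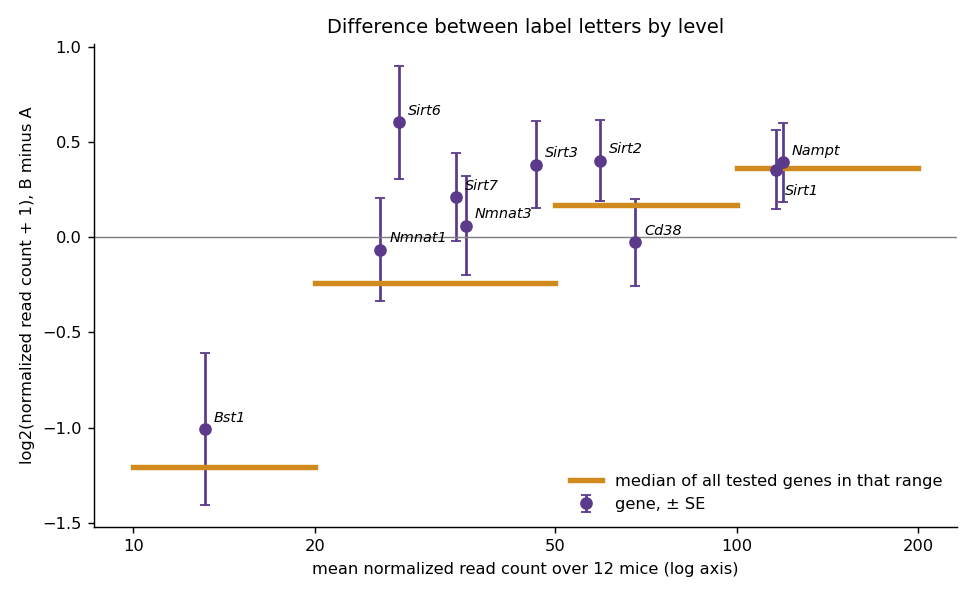
Difference between mice of letters B and A on the log2(normalized read count + 1) scale (points with SE, adjusted for age) against the mean normalized read count over 12 mice (log axis), with orange bars for the median of all tested genes in each range of means. *Bst1* at -1.01 lies near the median of -1.21 for its range, and *Nampt* and *Sirt1* lie near the 0.37 of theirs.

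Levels of different genes were compared per length, as normalized read counts per kilobase of exon, over all 12 mice. From high to low the means were 23.6 ± 5.79 for *Nampt*, 21.8 ± 5.68 for *Sirt1*, 17.5 ± 9.58 for *Cd38*, 11.8 ± 3.12 for *Sirt2*, 9.91 ± 3.52 for *Sirt6*, 8.45 ± 2.22 for *Nmnat1*, 7.80 ± 2.02 for *Sirt3*, 7.11 ± 2.0 for *Nmnat3*, 6.66 ± 1.46 for *Sirt7* and 3.96 ± 2.26 for *Bst1* (SD, n = 12 each). Of the 9 pairs of neighbours in this order, 1 differed beyond the spread between mice. *Sirt7* lay above *Bst1* in 10 of 12 mice (two-sided exact sign-flip permutation test, p = 0.00537, Benjamini-Hochberg adjusted p = 0.0483 over 9 pairs), and the other 8 pairs had adjusted p-values from 0.336 to 0.565 in this exact test. In mice of either letter alone 0 pairs differed, but with 6 mice the smallest p of the exact test is 0.0312, and a single pair of 9 cannot then go below an adjusted p of 0.281. With the length of the longest transcript in place of all exons, *Sirt2* led the order at 28.0 per kilobase. The 1 pair of neighbours that differed was then *Nmnat1* above *Bst1*, in 11 of 12 mice (same exact test, adjusted p = 0.00879).

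The place of *Cd38* in this order moved with age. Per kilobase of exon *Cd38* was at 9.48 ± 0.65 (SD, n = 5) in young mice, rank 4 of 10. In old mice it was at 23.2 ± 8.79 (SD, n = 7), rank 1, next to *Nampt* at 22.9 ± 6.47. Ranks depend on the length used, and those by age were not computed with the longest transcript. By mouse its rank was 4 to 7 in the young and 1 to 4 in the old mice. *Bst1* had rank 10 in both ages, and *Cd38* lay above *Bst1* in 12 of 12 mice.

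**Figure D4:**
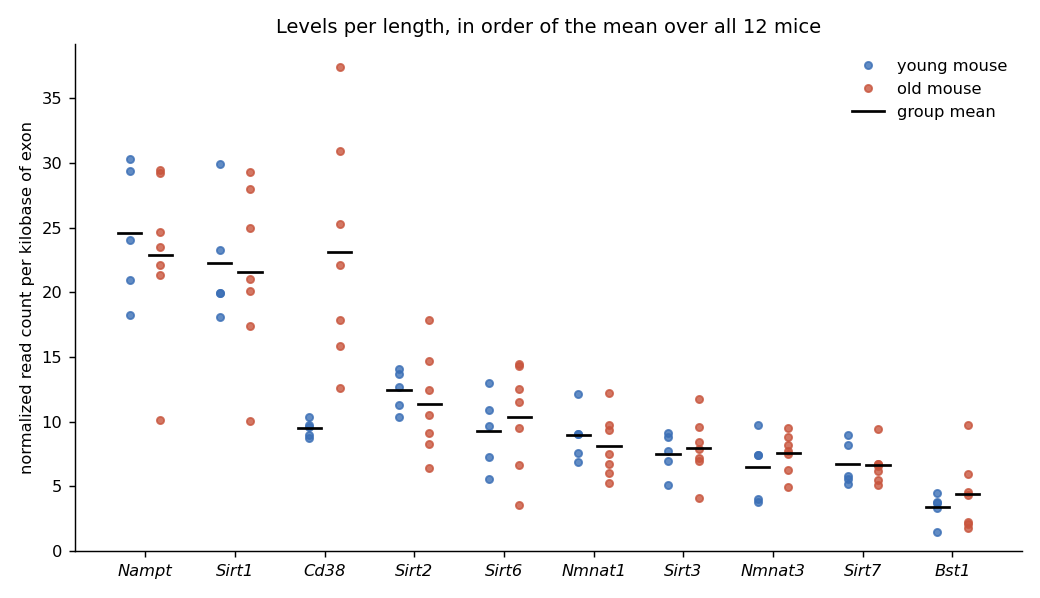
Normalized read counts per kilobase of exon for each gene, in order of the mean over all 12 mice, with young mice in blue, old mice in red and black lines at the group means (linear axis from 0). *Cd38* moves from a mean of 9.48 in young to 23.2 in old mice, while the pairs of group means of the other genes lie close together.

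Other genes of the pathways were taken from lists of NAD and sirtuin genes, 78 genes in all, of which 59 had a row and 51 were tested. Of these 51 genes, 0 had an adjusted p under 0.05 between old and young mice in limma, in edgeR's quasi-likelihood test and in DESeq2, and 4 had an unadjusted p under 0.05 in limma, as had 488 of all 12354 genes (3.95%). There were 29 higher and 22 lower in old mice, where 47.7% of all genes were higher, with a median log2 difference of 0.07 against -0.02 over all genes tested.

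The largest increase was that of *Kynu*, kynureninase of the de novo route from tryptophan to NAD. It had means of 10.5 in young and 21.4 in old mice (log2 difference 1.26, SE 0.57). *Kmo*, the kynurenine monooxygenase just upstream of it, had means of 9.57 and 19.0 (log2 difference 0.53, SE 0.70), and *Macrod2*, which removes ADP-ribose from proteins, had means of 20.0 and 32.3 (log2 difference 0.70, SE 0.34). None of these genes passed the test. In the list of NAD biosynthesis and salvage, 7 of the 10 genes tested were higher and 3 lower in old mice (median 0.20), and 6 of the 10 were called lower in letter B. Low levels go with this: 7 of the 10 had a mean below 20 normalized read counts, 5 of these 7 were among the genes called, and 53.7% of all genes with means from 10 to below 20 were called lower in letter B.

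The largest decreases were those of *Parp11*, a mono-ADP-ribosyltransferase, from 76.4 to 53.2 (log2 difference -0.52, SE 0.20), of *Idh2*, a mitochondrial dehydrogenase deacetylated by SIRT3, from 104 to 74.8 (-0.52, SE 0.23), and of *Trp53*, which encodes the SIRT1 substrate p53, from 178 to 142 (-0.46, SE 0.32). None passed the test. Among 14 tested genes of the PARP family, the other large group of NAD consumers, 6 were higher and 8 lower in old mice with a median of -0.09. The 6 tested calcium channel genes and receptors for the products of CD38 had a median of 0.10, with 5 higher and 1 lower in old mice. For 11 sirtuin substrates and partners 4 were higher and 7 lower (median -0.06), and *Sirt4*, the other sirtuin tested, had a log2 difference of -0.36.

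**Figure D5:**
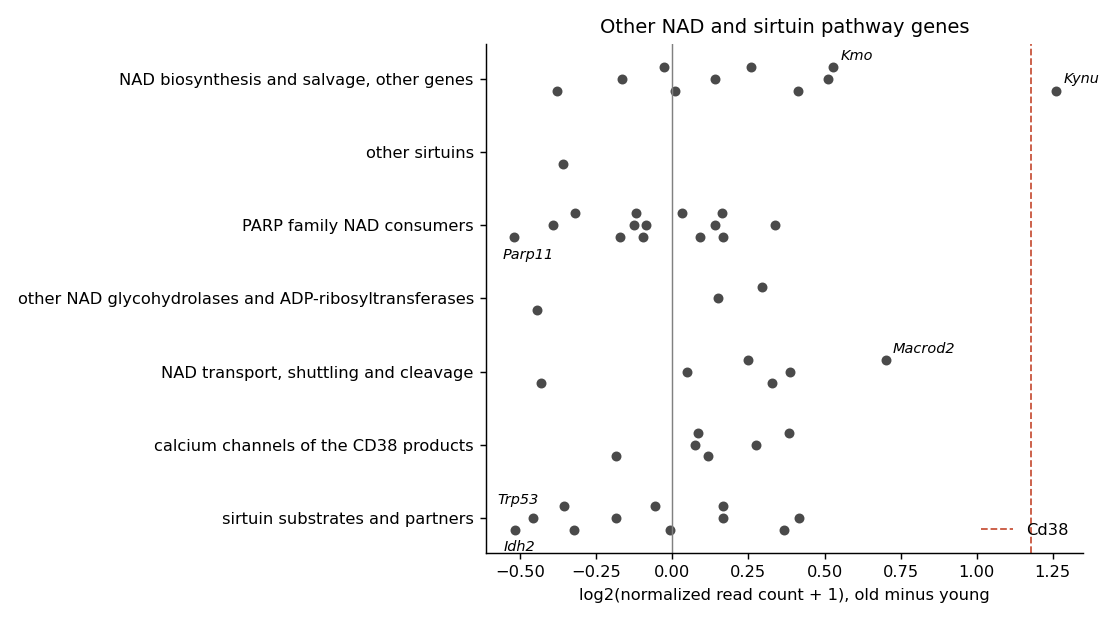
Difference between old and young mice on the log2(normalized read count + 1) scale for the 51 tested pathway genes outside the list of 10, 1 point per gene in 7 groups (vertical offsets only separate points), with the value of *Cd38* as a dashed line. *Kynu* at 1.26 is the 1 point to the right of *Cd38* at 1.18, and most points lie within 0.5 of 0.

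Markers of other cells and of the cell cycle were summed per mouse beside *Cd38*. The multipotent progenitor markers *Cd34*, *Flt3* and *Cd48* summed to 167 to 293 normalized read counts in young and 98.0 to 139 in old mice. These sums did not overlap, but each of the markers alone did. For *Cd34* the lowest young value was 99.5 and the highest old value 104. Both markers that could be tested were lower in old mice (median log2 difference -0.96). Without covariates *Cd34* was not called (limma adjusted p = 0.0544). With the letter as a covariate *Cd34* was called lower (log2 difference -0.99, SE 0.19, limma adjusted p = 0.00856). *Flt3* was called in neither fit (limma adjusted p = 0.780 without covariates and 0.0523 with the letter). Summed levels of 12 cell cycle genes were 1164 to 2201 in young and 890 to 1549 in old mice, with 11 of 12 lower in old mice, 0 called by limma and 9 with an unadjusted p under 0.05, against 3.95% of all genes. B cell markers summed to 63.6 to 149 in young and 63.4 to 174 in old mice, T cell markers to 17.3 to 77.9 and 9.14 to 129, NK cell markers to 15.7 to 52.3 and 9.87 to 48.1, megakaryocyte markers to 139 to 258 and 111 to 245, and erythroid markers to 140 to 302 and 97.9 to 1009. The sums of these 5 lists overlapped between the ages, no marker was at 0 in all mice, and the part of any of the lists in the difference of *Cd38* was not tested.

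Among the old mice, old mice 1 and 3, with the highest *Cd38*, had myeloid sums of 438 and 180, erythroid sums of 231 and 233 and megakaryocyte sums of 225 and 209. Old mouse 6, with the highest myeloid and erythroid sums, had 69.4 normalized read counts of *Cd38*, and old mouse 4, with the highest megakaryocyte sum, had 85.9. Old mouse 5, with the lowest *Cd38* of the old mice, had a myeloid sum of 969, an erythroid sum of 489 and a megakaryocyte sum of 161. Old mouse 7, with 98.4 normalized read counts of *Cd38*, had sums of 647, 256 and 111 in the same order. Old mouse 2, with 61.7, had sums of 198, 97.9 and 162. Whether any of these sums goes with the level of *Cd38* was not tested.

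The genes whose levels moved most like *Cd38* from mouse to mouse, after the mean of each age and letter had been subtracted, were *Clca3a1* (Pearson's r = 0.950, Spearman's rho = 0.923), *Mdh1* (r = 0.938, rho = 0.930) and *Pygm* (r = 0.921, rho = 0.797), each over 12 mice. They are the highest of 12353 genes and were picked for that, so that no p is given, and the points share libraries and depth. Without old mice 1 and 5, which lie farthest out for *Cd38*, r was 0.848, 0.853 and 0.736. Young mice averaged 80.9 ± 21.7 normalized read counts of *Clca3a1* (SD, n = 5) and old mice 215 ± 95.1 (SD, n = 7), a log2 difference of 1.30, while those of *Mdh1* and *Pygm* were 0.01 and 0.19.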

How the data were processed

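The deposited table holds normalized read counts, a signal that the authors made from reads per gene by dividing by library size and a scaling factor. Per the labels, FastQC 0.11.8, STAR 2.5.4b, edgeR 3.24.3 and build mm10 were used. The counting tool and annotation are not given in the sources used here. A deposited table of the authors' own comparison (fold changes, p-values) was not used. The labels list 24 samples, 2 for each of 12 mice, and the table has 1 column per mouse.

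Each value was divided by the step between the values of its library, the worth of 1 read, to recover reads (100% of values whole within 0.01). The fits used limma 3.58.1 in R 4.3.3 (lmFit, eBayes with trend) on log2(value + 1), which understates changes of low genes, over genes with a mean of at least 10, with Benjamini-Hochberg adjustment and a call at an adjusted p under 0.05. Means, exact tests and figures used Python 3.11.15, numpy 2.4.6, scipy 1.17.1, pandas 2.3.3 and matplotlib 3.10.9. Alternatives, with edgeR 4.0.16 and DESeq2 1.42.0 on recovered reads among them, are given in the closing section. The procedure was tested on simulated data. Positions and lengths came from GENCODE vM21 (18745 of 18762 identifiers found) and promoters from RefSeq.

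The 10 genes and all lists were chosen with earlier results of these data known. Named are the 10 genes, the 3 largest changes in each direction among the other pathway genes, and the 3 genes most correlated with *Cd38*. Young and old mice of the same replicate number are different animals. Their deviations correlated between -0.559 and 0.615 (mean 0.136), against -0.707 to 0.712 (mean -0.023) for pairs with different numbers. Only some of the same-numbered pairs share a letter, so these correlations cannot decide whether the numbers pair the samples. The main fits used no pairing.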

Additional observations from a re-analysis of the deposited data

Results flagged for a closer look

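*Nampt* in old mouse 5, at 51.3 normalized read counts, lay far from the other old mice, which were between 108 and 149. *Sirt7* in old mouse 3, at 48.6, lay far from the other old mice, between 26.4 and 34.8. These are 2 of 20 groups of samples examined with Dixon's criterion, where chance gives about 1 in 20. Whether a property of these libraries plays a part was not tested.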

How the results depend on the processing

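Depth limits the genes of lowest level, *Bst1* first, and 12 mice limit every comparison. Between the ages, *Cd38* was the gene behind a count of 1 of 10 genes called in place of 0, with edgeR's quasi-likelihood test, DESeq2, the letter as a covariate, letter B alone, and, added after seeing the data, edgeR with the letter as a covariate and old mice 5 to 7 left out. Leaving out each mouse in turn gave 0 to 1, with 1 without old mouse 5. The count stayed 0 without the trend, with median ratio rescaling, with other pseudocounts or minimum means and in letter A alone. Because the list was made with the age contrast known, nothing is read from these counts. *Cd38*, with log2 differences of 1.05 to 1.39, *Nmnat1* and *Nmnat3* kept their direction in 28 of 28 alternatives, while the other 7 genes changed sign in some alternatives, *Sirt7* most often, keeping it in 18 of 28. With the replicate block over replicates 1 to 5, 0 of the 10 genes were called, and 19 of all genes against 8 without the block. The count of other pathway genes called stayed 0 in every alternative run. For letter B against A, the 1 gene called became 0 with a pseudocount of 0.5, no minimum mean, a minimum mean of 20 (where *Bst1* is not tested), edgeR and old mice 5 to 7 left out, and 5 with median ratio rescaling. Leaving out each mouse gave 0 to 1. In the order of levels, the 1 pair that differed became 0 in letter A alone and in letter B alone, where 6 mice do not allow 1 pair of 9 to pass. Over all genes, 13 calls between the ages became 2 without the trend, 5 with median ratios, 18 with edgeR, 57 with DESeq2, 37 with the letter as a covariate, 3 in letter A, 98 in letter B, 49 with old mice 5 to 7 left out, and 3 to 32 without 1 mouse. The causes were not tested.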
